A study of Mus musculus with 6 samples.

Results

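Cathepsins are the proteases of the lysosome. The 10 cathepsin genes described here are Ctsa, Ctsb, Ctsc, Ctsd, Ctsf, Ctsh, Ctsl, Ctso, Ctss and Ctsz. They were a list of 10 gene names, looked up among the 32285 genes in the feature tables. Another 13 listed genes of the family were set apart. The list was chosen with earlier results of these data known. Their transcripts were measured by Visium spatial RNA sequencing, in which a tissue section lies on an array of barcoded spots and each captured transcript is counted once as a unique molecular identifier (UMI). The samples were 6 coronal brain sections, each 16 µm thick, from male C57BL/6J mice with no treatment or altered allele given in the labels. Young mice were 6 months old, middle mice 18 months and old mice 21 months, with 2 sections at each age, cut from frozen brains embedded in OCT. The sections named young 1, young 2, middle 1 and old 1 were on slide 1, while slide 2 held only middle 2 and old 2 and hence no young section.

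Cathepsins are made as inactive precursors, are sorted to endosomes and lysosomes and become active as the compartment acidifies. Most are cysteine proteases, whereas cathepsin D is an aspartic protease and cathepsin A a serine carboxypeptidase. In the brain, cathepsins B, D and L degrade proteins and organelles in neurons and glia, and cathepsin S is best known from microglia, the resident macrophages, where it trims the invariant chain of class II antigen presentation. White matter consists mainly of myelinated axons, with oligodendrocytes, astrocytes and microglia among them.

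The members that cut inside proteins are the aspartic protease gene Ctsd (chr7:142375911-142388038, GRCm38, minus strand) and the cysteine endopeptidase genes Ctsl (chr13:64359337-64370890, minus strand), Ctss (chr3:95526786-95556403, plus strand) and Ctsf (chr19:4855130-4860918, plus strand). Ctsb (chr14:63122462-63145923, plus strand) encodes an enzyme that also removes dipeptides from the C-terminal end of proteins. The exopeptidase genes are Ctsc (chr7:88278085-88310888, plus strand), whose product removes N-terminal dipeptides and activates granule proteases, Ctsh (chr9:90054152-90076089, plus strand), whose product is an aminopeptidase, Ctsz (chr2:174427493-174439039, minus strand), whose product is a carboxypeptidase, and Ctsa (chr2:164832873-164841032, plus strand), whose product also protects other lysosomal enzymes. Ctso (chr3:81932601-81956725, plus strand) is a less studied cysteine protease gene. All 10 are protein-coding genes in GENCODE M21. Annotated genes overlap Ctsa (Neurl2 and Pltp), Ctsb (Fdft1), Ctsc (Gm26522), Ctsd (Gm49369), Ctsl (Gm47123 and Gm49230), Ctss (Hmgb1-ps5) and Ctsz (Nelfcd). Whether the counting used strand is not given in the sources used here, so the counts of these members may hold reads of the overlapping genes.

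RefSeq promoter windows (GRCm38.p6), which run from 250 bases before a gene's start to 50 after it, were found for 8 of the 10 members in 9 entries. They were searched on both strands for CACGTG, the E-box at the core of the motif read by TFEB, a regulator of lysosomal genes, for its extended form TCACGTGA, which contains the E-box, and for GAGGAAGT, a core of the motif of PU.1, the myeloid transcription factor. CACGTG was present for Ctsa, Ctsd, Ctsf and Ctsl, beside 7.15% of all 32851 promoter windows. TCACGTGA was present for Ctsa and Ctsd, beside 0.974% of all windows. GAGGAAGT was present for Ctsc and Ctss, beside 3.20% of all windows. Stretches with a match are shown as a description. Of the members with a match, Ctsa, Ctsd, Ctsc and Ctss were called higher in old than in young white matter, and Ctsf and Ctsl were not. Ctsz was called and Ctso was not, both without a match. Ctsb and Ctsh, which were called, had no window to search. Whether a match goes with a change was not tested. Ctsa holds a further match at bases 6 to 11 after its start, which is not printed. The RefSeq starts differ from the GENCODE limits given above, so that windows before a RefSeq start can lie inside the GENCODE gene, as for Ctsa, Ctsl and the Ctsd window nearer to the start. Capitals mark the match, and each sequence is printed 5′ to 3′ on the gene's strand, so that a plus-strand window is read upwards and a minus-strand window downwards in coordinate.
Ctsd, window farther from the start (chr7:142388039-142388077): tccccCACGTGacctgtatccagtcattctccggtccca
Ctsd, window nearer to the start (chr7:142387908-142387937): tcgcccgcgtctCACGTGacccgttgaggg
Ctsa (chr2:164833749-164833772): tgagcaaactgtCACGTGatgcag
Ctsf (chr19:4855048-4855128): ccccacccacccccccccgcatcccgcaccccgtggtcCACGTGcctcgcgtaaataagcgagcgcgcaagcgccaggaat
Ctsl (chr13:64370740-64370768): ggcgttagaagcCACGTGctgatctaaat
Ctsc (chr7:88277897-88277977): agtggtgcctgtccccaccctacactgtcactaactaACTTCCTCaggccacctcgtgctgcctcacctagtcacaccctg
Ctss (chr3:95526771-95526800): gaaatgaaagttcACTTCCTCattgtggat
In Ctsc and Ctss the match is printed as ACTTCCTC, the same motif read from the other strand. A match is a description of the letters in a window, and binding of TFEB or PU.1 was not measured.

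After spots with under 500 UMIs were left out, the sections held 2573 to 2973 spots and 60938938 to 77557934 UMIs. The median per spot was 28199 ± 2678 UMIs in young, 26002 ± 138 in middle and 21068 ± 987 in old sections (SD, n = 2 sections), so the old sections were the shallowest. All 6 libraries had 2433 to 3627 UMIs of Ddx3y, a Y-linked gene, and at most 1 of Xist, as the male label has it. With 2 males per age in the labels' protocol and 1 section taken as 1 animal, p-values rest on 2 animals a group. Spots are small areas that can hold several cells, and 18 of 22 clusters of spots were assigned to 9 regions by marker genes. The clustering genes held neither the 10 cathepsins nor the lysosomal, microglial or immune lists. The white matter region had Mal and Trf, both oligodendrocyte genes, among its leading genes and covered 8% to 10.8% of the spots of a section. Values below are CPM, a gene's share of all UMIs of the section or region on the usual CPM scale, and no level is compared between genes.

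Across whole sections, 9 of the 10 cathepsins were higher in both old sections than in both young sections, but the differences were small and none passed the test across all genes. This non-overlap was shared by 32.1% of all genes tested. The largest fitted differences between old and young were those of Ctss, Ctsh, Ctsz and Ctsd. In these spot mixtures, more cells of a type and more RNA per cell cannot be told apart.

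Among the endopeptidases, Ctss measured 67.0 and 83.2 CPM at the young age, 95.9 and 102 at the middle age and 105 and 129 at the old age. Ctsd was at 308 and 307 CPM in young, 324 and 356 in middle and 369 and 414 in old sections. For both genes the 3 ages did not overlap and the old values were the highest. The difference in Ctss between old and young was 0.59 ± 0.12 (log2 fold change ± SE), with an edgeR adjusted p of 0.17. For Ctsd it was 0.30 ± 0.07 with an edgeR adjusted p of 0.194.

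Ctsl read 117 and 115 CPM in young, 115 and 124 in middle and 130 and 127 in old sections. Ctsf, for its part, lay at 45.7 and 48.9, then 49.2 and 49.98, then 53.6 and 51.3 CPM. Both old sections exceeded both young ones for these genes, with differences of 0.09 ± 0.05 for Ctsl and 0.10 ± 0.05 for Ctsf. Ctsb covered 543 and 560 CPM in young, 556 and 586 in middle and 569 and 613 in old sections, a difference of 0.05 ± 0.06.

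Of the exopeptidases, Ctsz stood at 49.1 and 46.1 CPM in young, 58.9 and 63.1 in middle and 63.4 and 72.2 in old sections. Its difference between old and young was 0.46 ± 0.08 with an edgeR adjusted p of 0.12, the lowest of the 10. Ctsh was at 12.6 and 11.1 CPM in young, 14.9 and 16.1 in middle and 15.6 and 18.9 in old sections, a difference of 0.49 ± 0.11. In Ctsz the 3 ages were separate, and in Ctsh old and middle overlapped. Ctsa had 79.2 and 78.4 CPM in young, 82.9 and 87.9 in middle and 89.1 and 94.9 in old sections, and its difference of 0.17 ± 0.06 was not called. Ctsc lay between 6.76 and 8.55 CPM in all 6 sections. The remaining cysteine protease gene, Ctso, was the exception among the 10: its old sections, at 23.9 and 24.0 CPM, fell between the young values of 22.9 and 24.5.

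**Figure D1:**
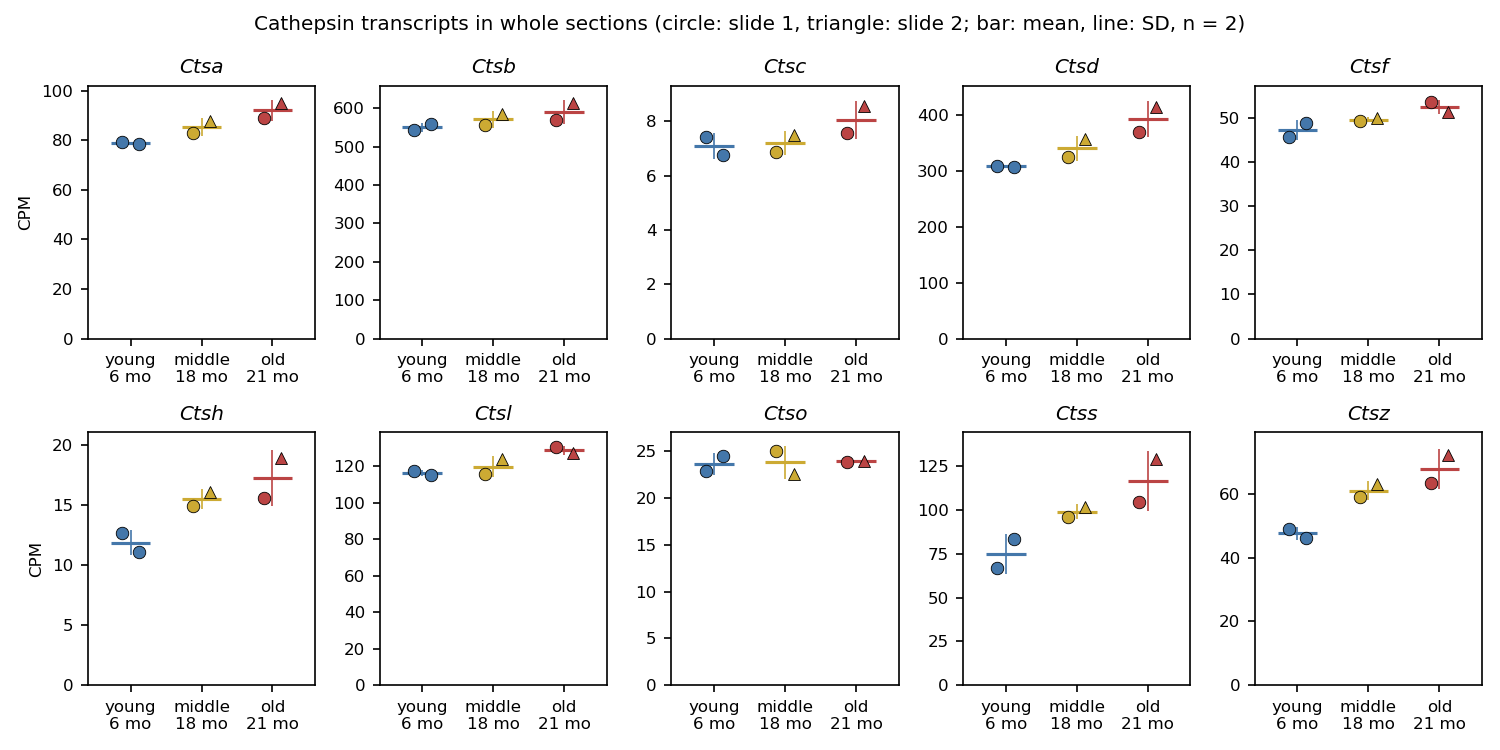
CPM of the 10 cathepsins in whole sections, 1 panel per gene with a linear axis from 0, points for sections (circles for slide 1, triangles for slide 2), horizontal bars for the mean and vertical lines for the SD of 2 sections. Both old sections are the highest for Ctsa, Ctsc, Ctsd, Ctsf, Ctsl, Ctss and Ctsz, in Ctss at 105 and 129 CPM against 67.0 and 83.2 in young.

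With edgeR's quasi-likelihood test and Benjamini-Hochberg adjustment over 17673 genes, 0 of the 10 cathepsins were called between old and young at an adjusted p under 0.05, where 0.164% of all genes tested were called. At an unadjusted p under 0.05 the test gave 5 of 10 (Ctsa, Ctsd, Ctsh, Ctss and Ctsz) and 2246 of all 17673 genes. DESeq2 called 4, with adjusted p of 0.000381 for Ctss, 0.000397 for Ctsz, 0.0222 for Ctsd and 0.0374 for Ctsh, among 194 of all 17673 genes. Between middle and young 0 of 10 were called (0.0679% of all genes), and between old and middle 0 of 10 (0% of all genes), with 3 and 1 members, and 1382 and 361 of all genes, at an unadjusted p under 0.05. Both middle sections lay above both young ones for 6 members (22.2% of all genes) and both old sections above both middle ones for 7 (23.5%). These comparisons share sections. Between the slides, middle 2 exceeded middle 1 in 9 of 10 members and old 2 exceeded old 1 in 8 of 10. Each slide held 1 section of each of these ages, so slide and animal cannot be told apart. The share of all genes with this direction was not counted. Within slide 1, old 1 stood above the mean of the young sections by 0.48 for Ctss, 0.41 for Ctsz, 0.39 for Ctsh and 0.26 for Ctsd (log2 of the CPM ratio). On slide 2, old 2 stood above middle 2 by 0.34, 0.19, 0.23 and 0.22 in the same order of genes.

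Averaged over the 6 sections, white matter was the highest of the 9 regions for Ctsa, Ctsb, Ctso, Ctss and Ctsz, the choroid plexus and ventricle region for Ctsc, Ctsd, Ctsh and Ctsl, and thalamus for Ctsf. The choroid plexus is the epithelium that makes cerebrospinal fluid. Ctss was at 377 ± 150 CPM in white matter (SD, n = 6 sections), 165 ± 33.9 in the choroid plexus and ventricle region and 59.1 ± 5.84 in isocortex, the lowest region. Ctsd measured 1121 ± 104 CPM in the choroid plexus and ventricle region and 812 ± 339 in white matter, and the next region, hypothalamus, had 350 ± 30.8. In old sections alone white matter ranked above the choroid plexus and ventricle region for Ctsd, at 1212 and 1161 CPM. The section ranges of the first and second regions overlapped for both genes, while those of the second region and the one after it overlapped in Ctss and not in Ctsd.

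Ctsl was at 292 ± 25.3 CPM in the choroid plexus and ventricle region, clear of white matter at 174 ± 29.1, and at 96.3 ± 11.5 in striatum, the lowest. Ctsc, at 43.5 ± 9.71 CPM in the choroid plexus and ventricle region, fell to 3.93 ± 0.53 in isocortex. These 2 genes had their highest section in the choroid plexus of young animals, with 338 CPM for Ctsl and 59.8 for Ctsc in young 1. Ctsh stood at 67.0 ± 11.7 CPM in the choroid plexus and ventricle region, 43.8 ± 17.3 in white matter and 26.3 ± 4.67 in meninges, and no other region exceeded 20.1 CPM in any section. Ctso had 49.1 ± 6.09 CPM in white matter and 47.1 ± 4.89 in the choroid plexus and ventricle region, which overlapped, and 31.7 ± 4.30 in meninges, which lay below both.

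Ctsb and Ctsf had the flattest distributions. Ctsb ranged from 469 ± 16.2 CPM in the amygdala and olfactory cortex region to 663 ± 159 in white matter, and isocortex, at 629 ± 22.0, had rank 3. In young sections alone white matter had rank 5 of the 9 regions for Ctsb (539 CPM), and in old sections rank 1 (849 CPM). Ctsf ranged from 42.0 ± 4.96 CPM in striatum to 70.8 ± 4.94 in thalamus. Ctsa and Ctsz were each highest in white matter, at 178 ± 34.0 and 179 ± 67.5 CPM, followed by the choroid plexus and ventricle region at 160 ± 15.6 and 154 ± 20.5, and overlapped there. The choroid plexus and ventricle region came first in young sections and white matter in old sections for both genes. All other neighbours in the order of the 9 regions overlapped, except thalamus over the amygdala and olfactory cortex region for Ctsz, meninges over thalamus for Ctsh and the step from the choroid plexus and ventricle region to the next region for Ctsa and Ctsz.

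**Figure D2:**
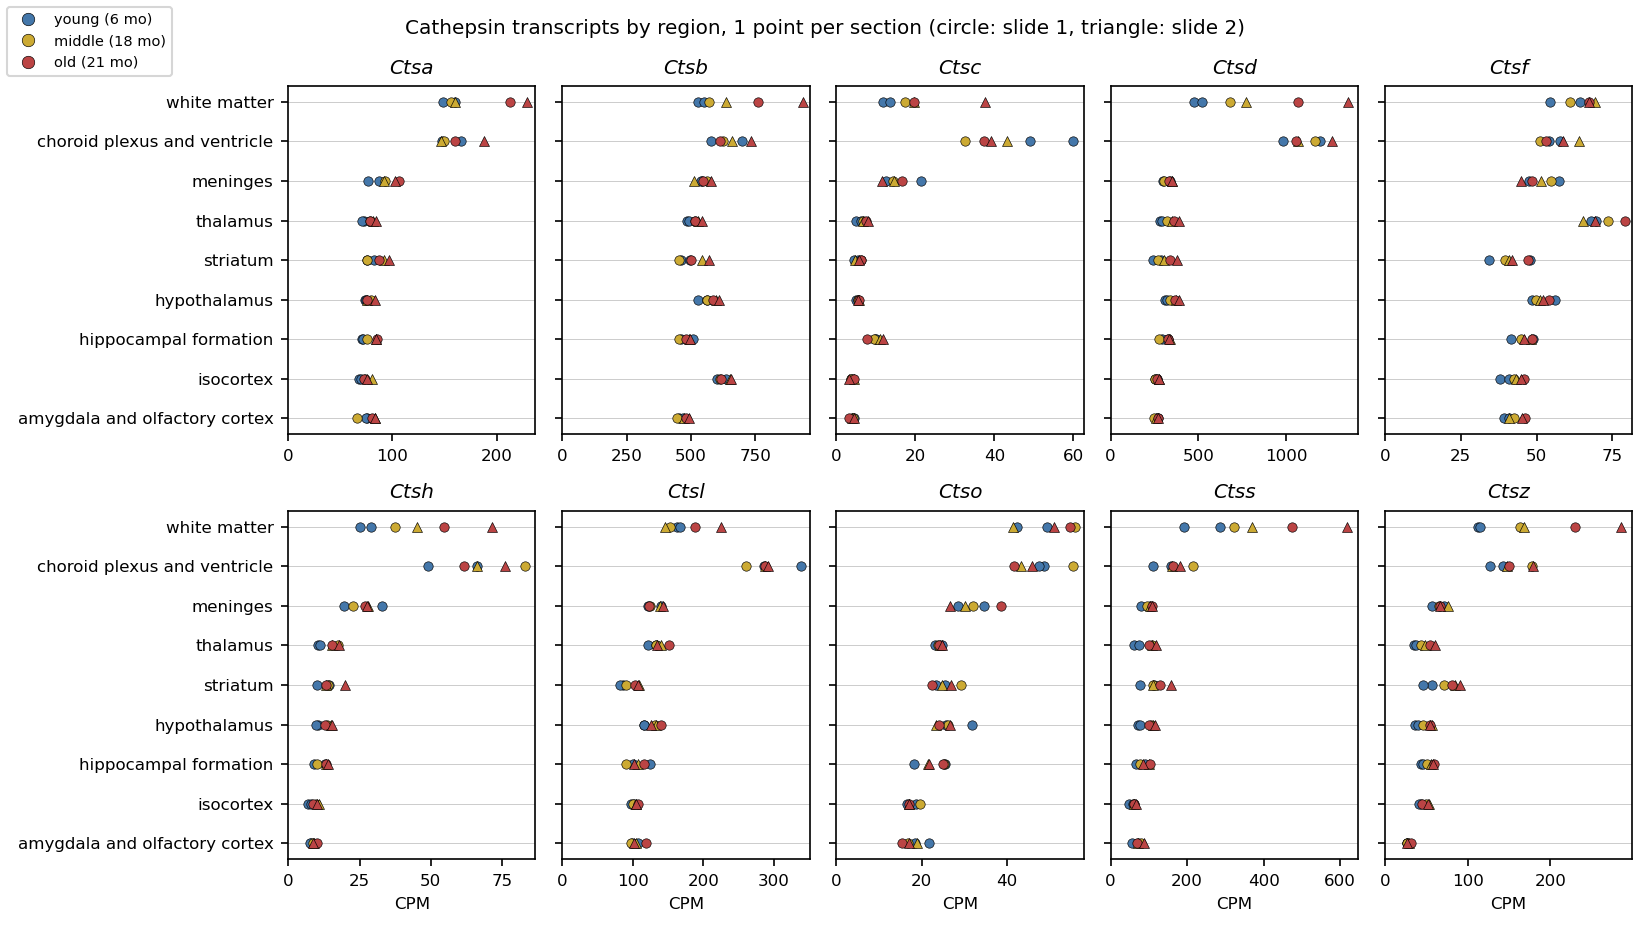
CPM of each cathepsin (x axes, linear from 0, different per gene) in the 9 regions (y axis), 1 point per section, coloured by age, circles for slide 1 and triangles for slide 2. White matter and the choroid plexus and ventricle region have the highest means for 9 genes, all but Ctsf, which is highest in thalamus at 70.8 CPM.

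In white matter, 7 of the 10 cathepsins were higher in old than in young mice: Ctsa, Ctsb, Ctsc, Ctsd, Ctsh, Ctss and Ctsz. For 5 of them, Ctsc, Ctsd, Ctsh, Ctss and Ctsz, the log2 fold change lay between 1.12 and 1.22. Ctsf, Ctsl and Ctso did not pass the test. All members called were higher, where 2.31% of all 12488 genes tested were called and 1.52% were called higher. Both old sections exceeded both young ones for all 10 members, as for 28.8% of all genes.

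Ctsd held 476 and 522 CPM in young white matter, 682 and 770 in middle and 1069 and 1354 in old. The 3 ages did not overlap, and the difference between old and young was 1.22 ± 0.11 (log2 fold change ± SE) with an edgeR adjusted p of 7.21e-08. It was called as well between middle and young (0.50 ± 0.11, edgeR adjusted p of 0.00779) and between old and middle (0.72 ± 0.11, edgeR adjusted p of 0.0013). The middle against young call was lost with the slide as a block (0.38, edgeR adjusted p of 0.0771), on slide 1 only and without young 1 or middle 2, and the old against middle call on slide 1 only and without old 2. Ctss was at 192 and 286 CPM in young, 324 and 369 in middle and 473 and 618 in old white matter. Its ages were likewise separate, although the young sections lay well apart. The old against young difference was 1.13 ± 0.19 with an edgeR adjusted p of 0.0305, and the steps through middle age were 0.50 ± 0.19 and 0.64 ± 0.19, neither called. The old against young call was lost in 5 of 19 alternatives, which were leaving out middle 1 or middle 2 (edgeR adjusted p of 0.133 and 0.148), slide 1 only, thinning to the smallest total and age as a linear term.

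Ctsz, the carboxypeptidase gene, read 112 and 115 CPM in young, 163 and 168 in middle and 230 and 285 in old white matter. The replicates lay close together at 6 and 18 months, and each of the 3 comparisons was called: 1.12 ± 0.11 between old and young (edgeR adjusted p of 1.51e-07), 0.50 ± 0.11 between middle and young (0.00719) and 0.62 ± 0.10 between old and middle (0.00365). The middle against young call was lost with the slide as a block (0.42, edgeR adjusted p of 0.0545), on slide 1 only and without middle 2, and the old against middle call on slide 1 only and without middle 2 or old 2. Ctsh, the aminopeptidase gene, had 29.0 and 25.2 CPM in young, 37.4 and 45.3 in middle and 54.6 and 71.6 in old white matter. The ages were separate here too, and the old against young difference was 1.17 ± 0.16 with an edgeR adjusted p of 5.3e-05. Ctsc rested on few counts, from 38 UMIs in young 1 to 127 in old 2, at 11.8 and 13.5, then 17.4 and 19.6, then 19.7 and 37.6 CPM. Old 2 was far above the other 5 sections, and old 1 barely exceeded the middle ones. Its difference of 1.13 ± 0.25 had an edgeR adjusted p of 0.0185 and fell to 0.58 without old 2, with an edgeR adjusted p of 0.526. The call was lost in 12 of 19 alternatives, among them DESeq2 (adjusted p of 0.134), the slide as a block (0.80, edgeR adjusted p of 0.196), both other Leiden resolutions and leaving out any section but old 1.

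Ctsb had the larger fitted difference between old and middle, with 527 and 550 CPM in young, 569 and 636 in middle and 761 and 937 in old white matter. Ctsa did the same, with 148 and 160 CPM in young, 156 and 160 in middle and 212 and 229 in old. Both were called between old and young, Ctsb at 0.60 ± 0.10 (edgeR adjusted p of 0.000907) and Ctsa at 0.46 ± 0.10 (edgeR adjusted p of 0.00619). Both were also called between old and middle, at 0.48 ± 0.10 and 0.46 ± 0.10 with edgeR adjusted p of 0.0308 and 0.0238. Between middle and young their values were 0.12 ± 0.10 and -0.0019 ± 0.098, neither called. The old against young calls of both were lost without old 2, on slide 1 only and with age as a linear term. That of Ctsa was also lost without young 1 and with DESeq2. The old against middle calls of both were lost without middle 1, middle 2 or old 2, on slide 1 only and at Leiden resolution 0.5. That of Ctsa was also lost in a core of 120 spots per section, and that of Ctsb at Leiden resolution 1.2.

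Ctsl went another way, with 163 and 167 CPM in young, 153 and 145 in middle and 189 and 225 in old white matter. The middle sections were the lowest and the old the highest, so that the step between old and middle was called (0.45 ± 0.10, edgeR adjusted p of 0.0347) and the difference between old and young was not (0.27 ± 0.10, edgeR adjusted p of 0.22). The old against middle call was lost in 10 of 18 alternatives, among them DESeq2 (adjusted p of 0.0916), thinning, both other Leiden resolutions, the spots richest in myelin and leaving out middle 1, middle 2 or old 2. Ctsf had 54.5 and 64.2 CPM in young and 67.4 and 67.1 in old white matter, and Ctso 42.4 and 49.4 against 54.6 and 50.9. Their differences of 0.12 ± 0.12 and 0.14 ± 0.15 were about as large as their errors.

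**Figure D3:**
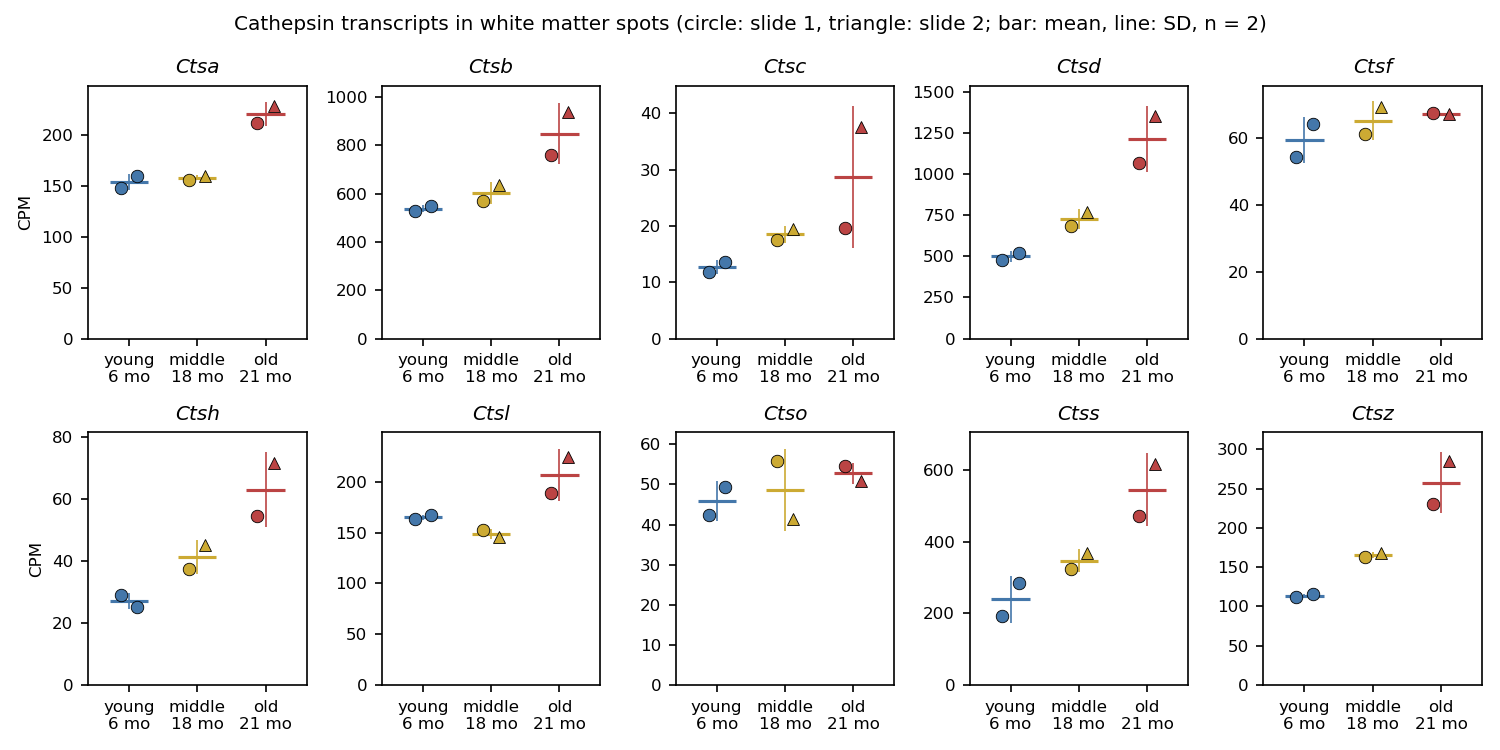
CPM of the 10 cathepsins in white matter spots, 1 panel per gene with a linear axis from 0, points for sections (circles for slide 1, triangles for slide 2), horizontal bars for the mean and vertical lines for the SD of 2 sections. Old sections are above both other ages for Ctsa, Ctsb, Ctsc, Ctsd, Ctsh, Ctsl, Ctss and Ctsz, and Ctsd climbs from 476 and 522 to 1069 and 1354 CPM.

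Counted over all members, 2 of 10 were called between middle and young white matter (3.98% of all genes tested) and 5 of 10 between old and middle (0.585%). Middle sections exceeded young ones without overlap for 6 members (26.5% of all genes) and old exceeded middle for 8 (23%). White matter of slide 2 was the higher of each pair for 8 of 10 members at both the middle and the old age. Slide and animal cannot be told apart here either, and the share of all genes was not counted. Without old 2, the old against young values of Ctsa, Ctsb and Ctsc were 0.41, 0.44 and 0.58. These calls were lost, as were all calls of members between old and middle. With a section left out, the old against middle values were 0.41 to 0.51 for Ctsa, 0.32 to 0.61 for Ctsb and 0.54 to 0.88 for Ctsd. They were 0.32 to 0.57 for Ctsl and 0.46 to 0.76 for Ctsz. Fewer members, and fewer of all genes, were called there without middle 1, middle 2 or old 2, and more of both without old 1. Between middle and young, fewer of both were called without young 1 or middle 2. On slide 1 alone, the old against young calls of Ctsa, Ctsb, Ctsc and Ctss were lost, and fewer of all genes were called. All 10 old against young values remained above 0 on slide 1 alone and without old 2. The within-slide 1 difference of old 1 from the mean young level was 1.10 for Ctsd, 0.99 for Ctss, 1.01 for Ctsz and 1.01 for Ctsh on the log2 scale.

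Other lysosomal and microglial genes moved in the same spots. Of 36 lysosomal hydrolases and cofactors tested in white matter, 7 were higher in old than in young mice and 0 lower, with a median log2 fold change of 0.23 beside 0.86 for the cathepsins and -0.0014 for all genes. Among them were Man2b1, the lysosomal alpha-mannosidase gene (0.90 ± 0.13), and Grn, which encodes progranulin (0.81 ± 0.12). Of 21 genes for lysosomal membrane proteins and sorting, 2 were higher: Cd68, a macrophage lysosome glycoprotein (1.56 ± 0.18), and Laptm5 (0.85 ± 0.12). Without old 2 the hydrolase count was 3 of 36, and without young 1 it was 4. Of 18 genes of the V-ATPase, the proton pump that acidifies the lysosome, 0 were called, with a median of 0.11, and of 3 TFEB family genes tested 0 were called. Whether these lists differ from the cathepsins was not tested.

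Of 8 cathepsin inhibitors and processing genes tested, 1 was higher, Cst7, which encodes cystatin F, an inhibitor of cysteine cathepsins. It measured 0.934 and 0.63 CPM in young, 7.47 and 15.0 in middle and 27.0 and 49.4 in old white matter (log2 fold change 5.50 ± 0.60, edgeR adjusted p of 0.00141). Cst7 also passed in whole sections, at 4.02 ± 0.38 with an edgeR adjusted p of 0.029. Of 7 class II genes, whose invariant chain is a substrate of cathepsin S, 3 were higher: H2-Ab1 (2.41 ± 0.55), Cd74, the invariant chain gene itself (2.37 ± 0.26), and H2-DMb1 (1.58 ± 0.39). Their levels were low, Cd74 at 4.67 and 6.30 CPM in young and 27.7 and 31.6 in old white matter. The class II count was 1 without young 1, young 2 or old 2 and 2 without middle 1. Of 13 further cathepsin family genes, 10 had no UMI in any section, and the 1 tested in white matter was not called.

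Microglial markers were followed in the same spots. The 13 homeostatic microglia markers summed to 645 and 714 CPM in young, 820 and 860 in middle and 1030 and 1140 in old white matter, with 5 of 13 higher in old than in young mice, led by Fcrls (1.47 ± 0.19) and Cx3cr1 (1.05 ± 0.15). Without old 2 the count was 3 of 13. Tmem119 and P2ry12, named after their values were seen, were not called, at 0.28 ± 0.15 and -0.03 ± 0.14. Of 11 activated microglia markers tested, 6 were higher. The sum over the list was 602 and 602 CPM in young, 564 and 574 in middle and 804 and 1087 in old white matter. Itgax, the CD11c gene, went from 0.311 and 0.315 CPM in young to 9.68 and 16.9 in old white matter (5.20 ± 0.57). The called members of largest change, Cst7, Itgax and Lgals3, were at 0.934, 0.311 and 1.25 CPM in young 1. In old 1 they were at 27.0, 9.68 and 28.7 CPM. Most of the sum thus came from other genes of the list, and the cells that held them were not identified. Cst7 stands in both the inhibitor and the activated list. The part of microglia number in the cathepsin values was not tested.

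Border macrophage markers were low, at 17.6 to 37.3 CPM summed over 11 genes, and 0 of the 3 tested were called. The 1 monocyte and neutrophil marker tested, Csf3r, was higher in old white matter (1.23 ± 0.27). Of 12 endothelial and mural and 7 fibroblast markers tested, 0 were called, and no granule protease gene was abundant enough to be tested. Neuron markers summed to 1309 and 1331 CPM in young, 1941 and 2301 in middle and 1584 and 1447 in old white matter. Oligodendrocyte markers summed to 53016 and 56362 CPM in young, 47280 and 41271 in middle and 49690 and 47327 in old white matter. White matter spots of the middle sections thus held the most neuronal and the least myelin RNA, and their part in the cathepsin values was not tested. Between old and young, 1 of 10 oligodendrocyte markers was lower (Mal, -0.59 ± 0.11), 1 of 12 neuron markers higher (Syp, 0.44 ± 0.12) and 1 of 10 astrocyte markers higher (Aldh1l1, 0.65 ± 0.14).

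The difference itself was tested by edgeR with the section as a block, which called a larger change in white matter for 7 of the 10 cathepsins. Limma on the within-section differences called 0. The same 7 genes that were called in white matter passed, where 1.73% of the 16894 genes tested were called. Expressed per section as the log2 ratio of white matter to all other spots, Ctsd had 0.66 and 0.81 in young, 1.15 and 1.19 in middle and 1.66 and 1.92 in old sections. Ctsb had ratios near 0 in young sections, at -0.04 and -0.03, and 0.44 and 0.66 in old ones. The ratio was higher in both old than in both young sections for 9 of 10 members, Ctsf being the exception.

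The fitted difference was 1.14 ± 0.24 for Ctsc, 1.04 ± 0.09 for Ctsd, 0.80 ± 0.17 for Ctsh, 0.79 ± 0.10 for Ctsz, 0.71 ± 0.09 for Ctss, 0.57 ± 0.09 for Ctsb and 0.33 ± 0.10 for Ctsa. Ctsf, Ctsl and Ctso lay at 0.03 ± 0.13, 0.19 ± 0.10 and 0.20 ± 0.15. The edgeR adjusted p ran from 1.83e-30 for Ctsd to 0.037 for Ctsa among the genes called. The unadjusted p-values of this fit match a normal distribution of the fitted difference over its SE. They thus treat the spread between sections as known, and do not measure the spread between the few animals of an age. The call depended on the test: DESeq2 called 4 (Ctsb, Ctsd, Ctss and Ctsz), among 73 of all 16894 genes, where edgeR called 292. Limma on the 6 within-section differences called 0 of the 10 and 0 of all genes, with 1247 genes at an unadjusted p under 0.05. Its log2 difference for Ctsd was 1.04 ± 0.15, with a limma adjusted p of 0.257. Without old 2, the edgeR calls of Ctsa, Ctsc and Ctsh were lost, at 0.32, 0.60 and 0.71, and fewer of all genes were called.

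For Ctsd, Ctss and Ctsb the ages lay furthest apart in the spots richest in myelin. When the spots of each section were ranked by their share of oligodendrocyte marker UMIs and split into 10 bins of equal size, bin 10 being the richest, a description added after the values were seen, Ctsd in bin 1 lay between 267 and 334 CPM in all 6 sections. In bin 10 it was 465 and 509 in young, 711 and 758 in middle and 1038 and 1335 CPM in old sections. In bin 9 the values were 392 and 420, 436 and 501, and 548 and 646 CPM. Ctss went from 51.0 to 65.3 CPM in bin 1 to 200 and 300 in young, 312 and 336 in middle and 452 and 592 in old sections in bin 10. Spots of the white matter region made up 75% to 92.5% of bin 10, so these values largely restate those of white matter.

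Ctsb was similar at both ends in young sections, at 525 and 529 CPM in bin 1 and 499 and 530 in bin 10. In old sections it went from 550 and 548 to 731 and 914 CPM. Ctsl was higher in bin 10 than in bin 1 of all 6 sections, at 97.6 to 126 CPM in bin 1 and, in bin 10, 161 and 152 in young and 184 and 215 in old sections. The homeostatic microglia sum in bin 10 was 647 and 722 CPM in young, 810 and 794 in middle and 1003 and 1118 in old sections, and neuron markers lay between 1046 and 2497 CPM there.

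**Figure D4:**
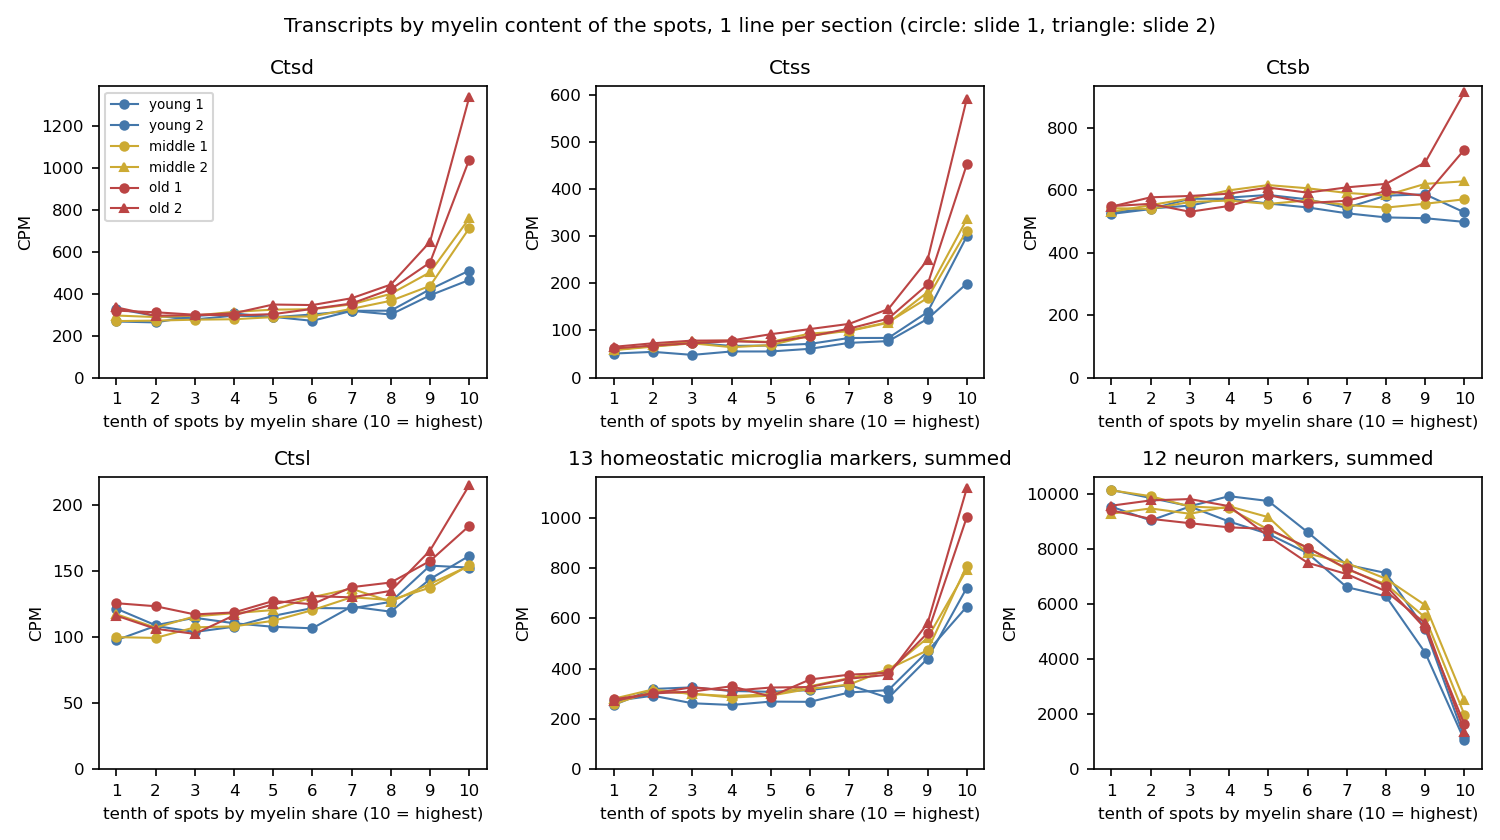
CPM (y axes, linear from 0) in 10 equal bins of the spots ranked by myelin share (x axis, bin 10 the richest), 1 line per section, for Ctsd, Ctss, Ctsb, Ctsl and the summed homeostatic microglia and neuron markers. Ages separate in bin 10 for Ctsd, Ctss and Ctsb, where Ctsd is at 465 and 509 in young and 1038 and 1335 CPM in old sections, and lie close together in bin 1.

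Outside white matter, 1 of 80 pairs of cathepsin and region was called between old and young: Ctss in hypothalamus, where 0.0693% of all genes were called. It measured 70.8 and 77.4 CPM in young, 105 and 112 in middle and 102 and 116 in old sections. The old against young difference was 0.51 ± 0.08 with an edgeR adjusted p of 0.0294, and the middle and old sections overlapped. The call was lost in 5 of 13 alternatives. These were the slide as a block, with an edgeR adjusted p of 0.178, and the fits without young 1, middle 1, middle 2 or old 2, with 0.101, 0.063, 0.0649 and 0.21. Homeostatic microglia markers in hypothalamus summed to 317 and 301 CPM in young and 312 and 348 in old sections, and 0 of 13 were called. The region joins 3 clusters, of which one was named from 3 markers.

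The direction was shared more widely than the calls: 63 of the 80 differences were above 0. The median difference over all genes tested in these 8 regions lay between -0.0017 and 0.0071. All 8 regions come from the same sections, so the 80 differences are not separate observations. Ctss was positive in all 8 regions, from 0.22 in isocortex to 0.65 in thalamus. Ctsh was also positive in all 8, from 0.0013 in meninges to 0.54 in thalamus, as was Ctsd, from 0.0038 in the amygdala and olfactory cortex region to 0.38 in striatum. Ctsz reached 0.63 in striatum and 0.59 in thalamus, with its lowest value, -0.0073, in meninges. Ctsa and Ctsb were positive in all 8 regions, with Ctsb at 0.11 or less. Ctsc was negative in 5 of 8 regions and lowest, at -0.50, in the choroid plexus and ventricle region, with 59.8 and 49.1 CPM in young and 37.4 and 39.1 in old sections. Ctso was negative in 6 of 8, down to -0.32 in the amygdala and olfactory cortex region. None of these passed the test, and the lowest edgeR adjusted p outside the hypothalamic Ctss was 0.0744, for Ctsz.

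In the choroid plexus and ventricle region, 0 of 10 were called (0.0845% of all genes) and both old sections exceeded both young ones for 2 members (15.7% of all genes). In meninges 0 were called (0.161%), in hippocampal formation 0 (0%), in isocortex 0 (0.156%), in striatum 0 (0.145%), in thalamus 0 (0.0797%) and in the amygdala and olfactory cortex region 0 (0.045%). Both old sections lay above both young ones for 8 members in thalamus (26.8% of all genes), 7 in hypothalamus (26.4%), 7 in striatum (27.5%), 7 in isocortex (26.9%), 4 in hippocampal formation (16.7%), 4 in the amygdala and olfactory cortex region (20.1%) and 3 in meninges (22.2%). Section young 1 held 65 hippocampal spots, against 185 to 289 in the others.

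**Figure D5:**
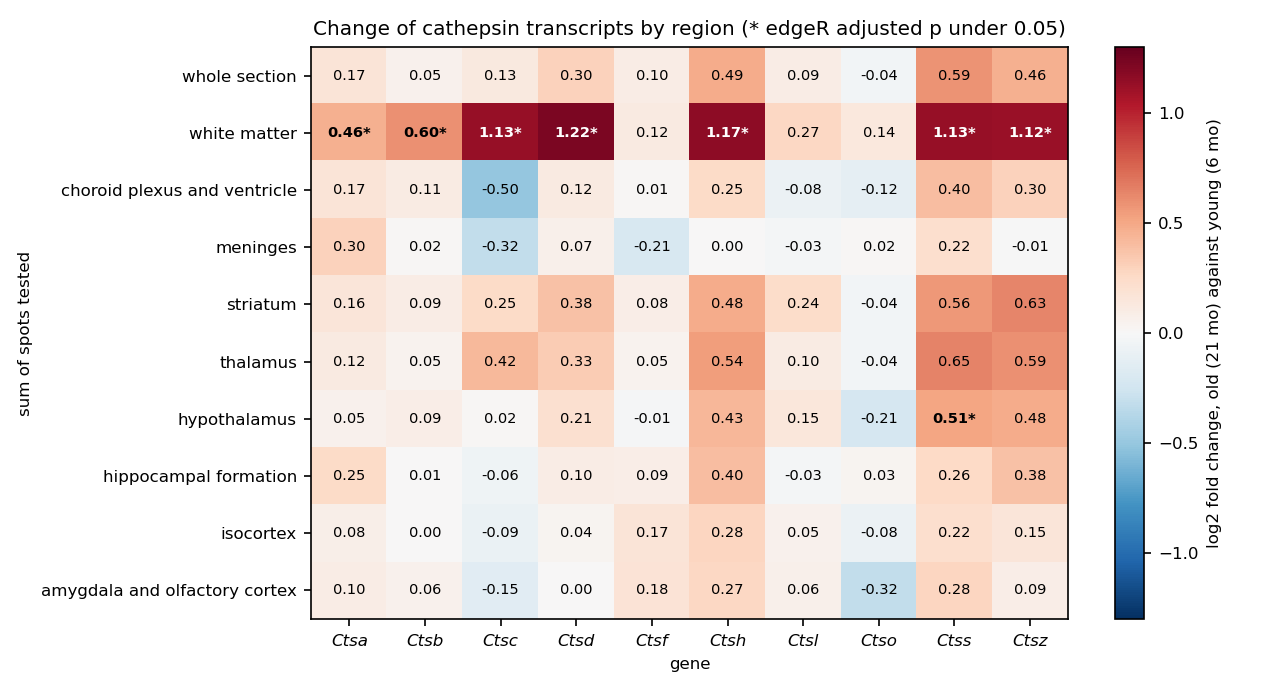
Log2 fold change of old against young for each cathepsin (x axis) in whole sections and the 9 regions (y axis), coloured from blue (lower in old) to red (higher in old), an asterisk marking an edgeR adjusted p under 0.05. White matter holds 7 asterisks and hypothalamus 1, and the values of Ctss, Ctsh and Ctsz are near or above 0 in every row.

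Over the 54 sums of 9 regions in 6 sections, which share libraries and depth, the 45 pairs of cathepsins correlated at 0.34 to 0.93 (Pearson's r of log2 values, median 0.79), highest between Ctsd and Ctsh and lowest between Ctsb and Ctsf. The genes most like Ctss were C1qb (0.98), C1qa (0.97) and C1qc (0.97), the subunits of complement C1q. Those most like Ctsd were Lamp2, a lysosomal membrane protein gene (0.95), 1810058I24Rik (0.95) and Serpinb6a, a protease inhibitor gene (0.95). Ctsz was most like Arpc1b (0.94), Lyz2, the lysozyme gene of phagocytes (0.93), and Itgb5 (0.93), and Ctsa most like Arpc1b (0.95), Itgb5 (0.94) and Syngr2 (0.94). Ctsh had Rnase4, Tspo and Cd63 (0.97 each), and Ctsc had Vim (0.96), Clic1 and Ifitm3 (0.95 each). For Ctsl the 3 were Dnajc3 (0.95), Acadvl and Cd164 (0.94 each), for Ctso Slc27a1 (0.96), Nfe2l2 (0.95) and Acadl (0.94), and for Ctsf Tom1 (0.88), Kcnj10, a potassium channel gene (0.87), and Rgs3 (0.86). Ctsb had the weakest matches, Yif1b (0.82), Cstb, which encodes the cathepsin inhibitor cystatin B (0.77), and Dcdc2a (0.74). The lists depend on the measure. With Spearman's rho, 0 of the 3 genes were shared for Ctsd and for Ctsh and 1 of 3 for Ctsa and for Ctsl. With each section centred, 1 of 3 was shared for Ctsd and for Ctsz, and for the other members 2 or 3.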

How the data were processed

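The deposited values are raw UMI counts, 1 whole number for each gene in each spot. The authors obtained them by Space Ranger, version 1.3.1 per the file headers and 3.1 per the submitters' processing notes, on mm10. Spots under 500 UMIs were left out, and the rest were clustered with scanpy 1.11.5 (2000 variable genes without the cathepsin, lysosomal and immune lists, 30 principal components, Leiden resolution 0.8). Counts were summed per section and per region. Each sum was tested over all genes with edgeR 4.0.16 (TMM factors, filterByExpr, robust quasi-likelihood test, Benjamini-Hochberg adjustment, threshold 0.05), with all 3 ages in 1 fit. White matter was compared with the other spots in 1 fit with the section as a block. DESeq2 1.42.0, limma 3.58.1, other filters, blocks, spot choices and leaving out each section were alternatives. Of list genes, those called were named, at most 3 per direction, and some genes are not reported here. The members and lists were chosen with earlier results of these data known. On simulated counts with a log2 change of 1 in 200 genes, the edgeR step recovered 78.2% in whole sections (17673 genes), 69.6% in white matter (12488) and 52% for the difference (16894). Unchanged genes made up 12.5%, 5.85% and 5.52% of the calls in the same order, at the threshold of 0.05. The simulated counts were independent draws with dispersions estimated from these data and held no section or slide effect. These shares therefore do not give the error rate in the real sections. Section totals were 60938938 to 77557934 UMIs. The 1043 spots of 4 unnamed clusters entered whole sections and the spots outside white matter.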

Additional observations from a re-analysis of the deposited data

Results flagged for a closer look

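For 7 cathepsins the difference between old and young sections was itself different in white matter and in the remaining spots, by edgeR's test of that difference. The log2 fold change in white matter exceeded that in the other spots by 0.33 for Ctsa, 0.57 for Ctsb, 1.14 for Ctsc, 1.04 for Ctsd, 0.80 for Ctsh, 0.71 for Ctss and 0.79 for Ctsz. In both old sections the ratio of white matter to other spots was above that of both young sections for each of these genes. Limma on the within-section differences called 0 of the 7. The edgeR p-values of this test treat the spread between sections as known.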

How the results depend on the processing

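Of the cathepsins called between old and young, whole sections had 0 of 10 in the main analysis, 4 with DESeq2, 1 with no filter on low counts, 1 with age as a linear term and 0 to 0 when each section was left out. White matter had 7, against 3 on slide 1 only, 2 with age as a linear term and 4 to 7 with a section left out. Between middle and young white matter the count of 2 became 4 with no filter, 0 with the slide as a block, 0 on slide 1 only and 0 to 3 with a section left out. Between old and middle the count of 5 became 0 on slide 1 only, 2 and 3 at Leiden resolutions 0.5 and 1.2 and 0 to 8 with a section left out. For the difference between white matter and other spots the count of 7 became 4 with DESeq2, 0 with limma, 4 to 7 with a section left out and 4 in a core of 120 spots per section, the last added after the data were seen. In the other regions 1 call among the 80 pairs of all 10 genes and 8 regions became 2 with DESeq2, 7 with no filter, 0 with the slide as a block and 0 to 4 with a section left out. The calls over all genes moved as well. Between old and young whole sections they were 29 of 17673 in the main analysis, 194 with DESeq2, 113 of 23985 with no filter and 128 with age as a linear term. White matter had 289 of 12488, and 184 with age as a linear term. Its middle against young calls were 497, then 708 of 19029 with no filter and 240 with the slide as a block. The difference had 292 of 16894, 73 with DESeq2 and 293 of 16932 in the core. The causes were not tested. Deviations of sections with the same replicate number correlated at 0.0193 for young and middle, 0.135 for young and old and 0.241 for middle and old. For middle and old the replicate number is also the slide, while both young sections were on slide 1. With the replicate block the counts were 0 in whole sections, 7, 4 and 7 in white matter (old against young, middle against young, old against middle) and 2 in other regions. Over all genes this block gave 21 in whole sections and 364, 606 and 118 in white matter. Between old and middle white matter, 73 of 12488 genes were called in the main analysis, with 23 of 12796 and 35 of 12679 at Leiden resolutions 0.5 and 1.2. Calls over all genes under the alternatives are not given for the other regions.

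No gene called in the main analysis reversed. In whole sections, old against young, Ctsb was at -0.0062 on slide 1 only and -0.0083 to 0.11 with a section left out, Ctsc at -0.0016 with equal spot numbers and Ctso at 0.010 with the slide block. Between middle and young, Ctsb was at -0.0080 with the slide block. Ctsc was at 0.024 when thinned, 0.11 without white matter, meninges and choroid spots and -0.098 to 0.094 with a section left out. Ctsl was at -0.0079 on slide 1 only, -0.0012 with equal spot numbers and -0.022 to 0.056 with a section left out. Ctso was at 0.031 with the slide block, 0.084 on slide 1 only, 0.0021 when thinned, 0.020 with equal spot numbers and -0.11 to 0.084 with a section left out. Between old and middle, Ctsb was at -0.021 on slide 1 only, -0.012 without white matter, meninges and choroid spots and -0.037 to 0.079 with a section left out. Leaving out a section gave -0.023 to 0.26 for Ctsh and -0.12 to 0.077 for Ctso.

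In white matter, the core of 120 spots gave -0.11 for Ctsf between old and young, 0.088 for Ctsa, -0.11 for Ctsf and -0.025 for Ctso between middle and young, -0.0045 for Ctsf between old and middle and -0.23 for Ctsf in the difference from other spots. Between middle and young, Ctsa was at 0.0035 on slide 1 only, 0.044 when thinned, 0.0074 and 0.0022 at the other Leiden resolutions and -0.037 to 0.031 with a section left out. Ctso was at -0.064 in the tenth of spots richest in myelin and -0.21 to 0.27 with a section left out, and Ctsf at -0.00066 to 0.19. Between old and middle, Ctso was at -0.072 on slide 1 only and -0.13 to 0.35 with a section left out, and Ctsf at -0.043 to 0.093. In the difference from other spots Ctsf was at -0.060 to 0.10 with a section left out.

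Elsewhere, Ctsd with the slide block was at -0.0052 in isocortex and -0.014 in the amygdala and olfactory cortex region. Ctsd ranged from -0.0047 to 0.083 in isocortex, -0.020 to 0.022 in the amygdala and olfactory cortex region, -0.022 to 0.17 in meninges and -0.057 to 0.31 in the choroid plexus and ventricle region with a section left out. Ctsz ranged from -0.027 to 0.20 in the amygdala and olfactory cortex region and -0.17 to 0.18 in meninges, with 0.14 there at Leiden resolution 1.2. Ctsh in meninges was at -0.0081 with no filter, -0.080 with the slide block, -0.0098 at Leiden resolution 0.5 and -0.32 to 0.45 with a section left out. Ctsc rested on 38 to 127 UMIs per section in white matter. Thinning to the smallest total lost the Ctss call there between old and young (edgeR adjusted p of 0.0547) and the Ctsl call between old and middle (0.0587).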
